A study of Mus musculus with 18 samples.

Results

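The genes that encode the mouse receptors for IgG were followed through macrophages with and without the transcription factors Bhlhe40 and Bhlhe41. They were Fcgr1, Fcgr3, Fcgr4 and Fcgr2b, which encode the receptor chains that bind IgG at the cell surface, Fcer1g, which encodes the signalling chain shared by the activating receptors, and Fcgrt, which encodes the heavy chain of the neonatal Fc receptor. They were taken by gene name and make up 6 of the 24732 features in the tables. Each was present under exactly 1 row, and all 6 passed the filter on low values, with at least 26.62 TPM in every library. TPM is a transcript abundance corrected for transcript length and scaled to the same total in every library.

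RNA was sequenced from mice of the genotype Bhlhe40-/-Bhlhe41-/-, called DKO here, and from Bhlhe40+/+Bhlhe41+/+ mice, called WT, all of C57BL/6 background. Alveolar macrophages came from digested lungs and were sorted as CD11c+ SiglecF+ cells with low CD11b, either at steady state or from mixed bone marrow chimeras. Chimera cells were sorted in addition as CD45.1+ CD45.2- for WT and CD45.1- CD45.2+ for DKO, so that in chimeras the genotype cannot be told apart from the CD45 allele and what is linked to it. Peritoneal macrophages of both genotypes were taken from lavage and sorted by CD11b, F4/80 and Tim4, all positive, and by MHC class II at an intermediate level. The knockout alleles were not restricted to a cell type by any Cre named in the labels, and the labels do not give the age of the animals. Each of the 6 groups had 2 libraries of polyadenylated RNA, described as biological replicates. The numbers in the library titles differ between the 3 populations, so population and library series cannot be told apart.

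Recovered reads numbered 6594712 in DKO chimera replicate 1 and between 16508468 and 29338242 in each of the others, and the 6 genes held between 379 and 25726 reads each per library. Bhlhe40 was at 213.5 to 940.3 TPM in WT and 65.68 to 242.7 in DKO libraries, and in each population both DKO libraries were below both WT libraries. Bhlhe41 was at 1.905 to 100.3 TPM in WT and 75.42 to 155.8 in DKO libraries, higher in DKO in each population. Which part of each gene was deleted is not given in the sources used here, so whole-gene TPM does not check the Bhlhe41 deletion, and WT and DKO name the libraries as labelled. Every alveolar library had the defining alveolar markers Car4, Ear1 and Chil3 at 330.3 TPM or more, and every peritoneal library had Gata6 at 81.26 TPM or more and Alox15 at 5452 TPM or more. Not all 10 defining alveolar markers were so. Marco was at 13.9 and 26.0 TPM in WT chimera libraries and at 960.2 TPM or more in peritoneal ones. Levels also differed by genotype. At steady state the means of Siglec5 and Car4 fell from 579.0 and 806.6 TPM in WT to 264.3 and 389.4 in DKO. The mean of Itgax rose there from 1095 to 1727 TPM and that of Marco, the largest of these changes, from 379.6 to 3917. In chimeras the Marco mean rose from 19.95 TPM in WT to 158.4 in DKO. The 7 defining markers of NK and T cells, the 5 of mast cells and basophils and the 4 of eosinophils were each under 1 TPM in every library, but Hdc, a further gene of the mast cell list, was not, as described with the other marker lists. In bulk RNA, fewer cells of a type and less RNA per cell cannot be told apart.

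Receptors for IgG let macrophages bind antibody-coated particles, take them up and respond to them. In the mouse, the chains encoded by Fcgr1, Fcgr3 and Fcgr4 signal through the activation motif of the shared gamma chain, which recruits the kinase Syk, whereas the chain encoded by Fcgr2b carries an inhibitory motif that recruits the phosphatase encoded by Inpp5d and dampens the response. The neonatal Fc receptor works inside the cell: it holds IgG in acidic endosomes together with beta-2 microglobulin, the product of B2m, and returns it to the surface or carries it to antigen processing. Lung and peritoneal cavity hold different resident macrophages, and the balance of activating and inhibitory receptors is known to set how strongly such cells answer immune complexes.

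Transcript levels of the activating receptors were led by Fcgr3 in every library. Fcgr3 encodes a low-affinity receptor for immune complexes. Its level was 593.1 and 588.5 TPM in WT steady-state alveolar libraries, 729.4 and 711.4 in WT chimera libraries, and 1089 and 1282 in WT peritoneal libraries. In DKO it was 679.8 and 724.5 TPM at steady state, 742.4 and 766.3 in chimeras, and 1255 and 1307 in the peritoneum. Peritoneal libraries were the highest and WT steady-state libraries the lowest, and the DKO and WT peritoneal groups overlapped, as did the WT chimera and DKO steady-state groups.

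Fcgr4 encodes a receptor for some IgG subclasses in immune complexes. It was at 246.7 and 223.3 TPM in WT against 197.0 and 171.5 in DKO at steady state, and at 183.7 and 219.2 in WT against 197.7 and 228.2 in DKO chimeras. Peritoneal libraries had less, 72.75 and 102.3 TPM in WT against 122.8 and 113.2 in DKO. The neighbouring alveolar groups overlapped in the order of levels, and every alveolar library was above every peritoneal one.

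Fcgr1 encodes the high-affinity receptor, which can hold IgG that is not in a complex. It had the lowest level of the 3 activating receptors in every library. It was at 61.29 and 57.56 TPM in WT against 98.14 and 94.52 in DKO at steady state, at 82.65 and 83.66 in WT against 101.8 and 100.2 in DKO chimeras, and at 38.35 and 47.42 in WT against 26.62 and 27.62 in DKO peritoneal cells. From DKO chimera down to DKO peritoneal cells, no neighbouring groups overlapped.

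Fcgr2b, the inhibitory receptor, had the widest range of the 4 receptors relative to its level. It was at 146.8 and 170.2 TPM in WT against only 33.52 and 29.25 in DKO at steady state, at 217.2 and 196.6 in WT against 136.2 and 126.2 in DKO chimeras, and at 252.3 and 198.0 in WT against 391.1 and 438.8 in DKO peritoneal cells. Both alveolar DKO groups lay below all WT libraries and both DKO peritoneal libraries above them. Only the WT peritoneal and WT chimera groups overlapped in its order. The extracellular parts of the receptors encoded by Fcgr2b and Fcgr3 are nearly identical, and how the authors' counting treated reads that match both is not given in the sources used here.

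Fcer1g, the common gamma chain, was the most abundant of the 6 in every alveolar library. It was at 1918 and 1984 TPM in WT against 1769 and 1955 in DKO at steady state, at 2349 and 2162 in WT against 1936 and 1988 in DKO chimeras, and at 1028 and 979.4 in WT against 959.6 and 1044 in DKO peritoneal cells. Alveolar cells thus had clearly more gamma chain transcript than peritoneal cells, and within the peritoneum and at steady state the genotypes overlapped.

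Fcgrt, the heavy chain of the neonatal Fc receptor, split the libraries by genotype. It was at 621.4 and 636.1 TPM in WT against 1188 and 1097 in DKO at steady state, at 611.8 and 560.5 in WT against 1037 and 959.6 in DKO chimeras, and at 358.5 and 334.0 in WT against 1206 and 1413 in DKO peritoneal cells. All 6 DKO libraries were above all 6 WT libraries, and the DKO peritoneal group went from the lowest WT level of the 3 populations to the highest DKO level.

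**Figure D1:**
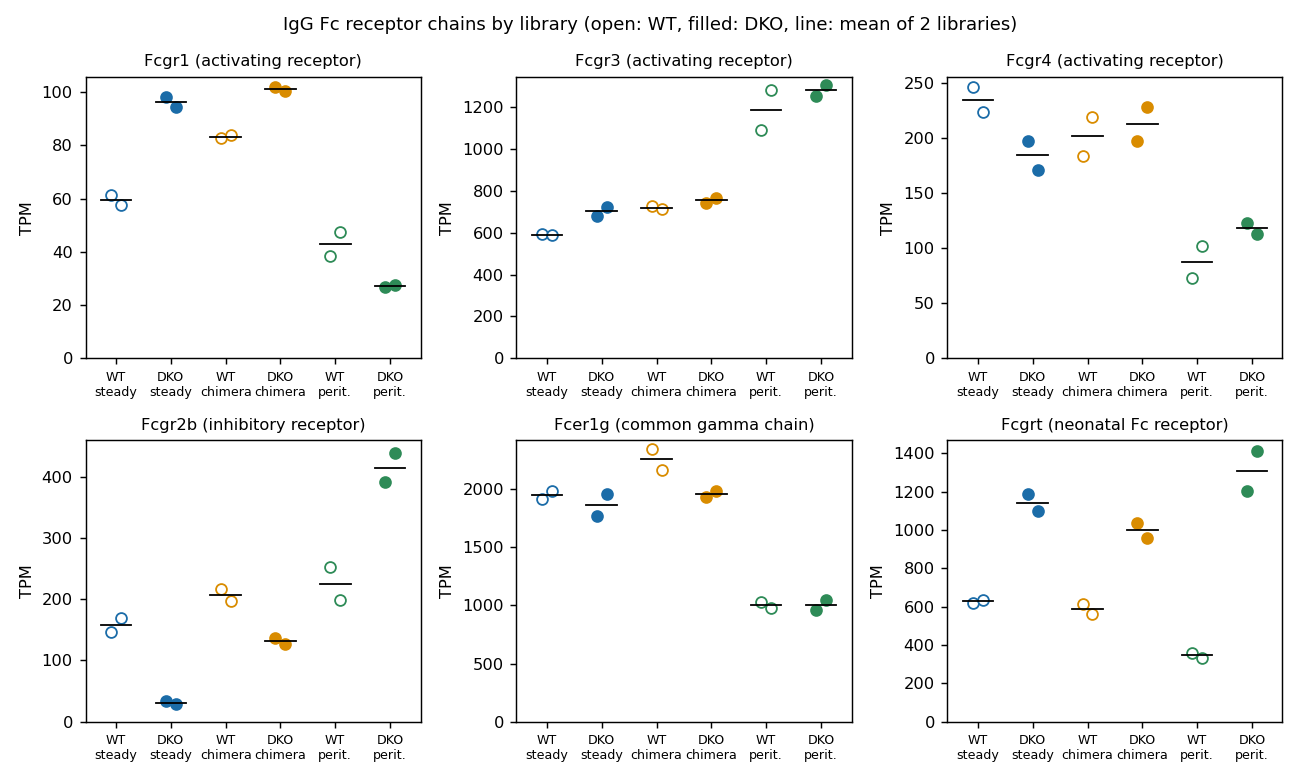
TPM of each of the 6 genes (y axes, from 0) in the 2 libraries of each group (x axis); open circles are WT, filled circles DKO, blue steady-state alveolar, orange chimera alveolar and green peritoneal, and black lines are group means. Fcgr2b in DKO steady-state libraries, at 33.52 and 29.25 TPM, lies far below every other group, and Fcgrt is higher in DKO than in WT in each population.

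The 6 genes sit in 3 places in the genome, none of them on chromosome 6, where Bhlhe40 and Bhlhe41 lie. Fcgr2b, Fcgr4 and Fcgr3 are direct neighbours on chromosome 1 with Fcer1g close by, Fcgr1 is on chromosome 3 and Fcgrt on chromosome 7. The promoters of Fcgr2b, Fcgr1 and Fcgrt are shown because these 3 genes passed the threshold in all 3 genotype comparisons described next. This only chooses what to print. The share of all features that passed in all 3 is not given here, and the Fcgr1 call in chimeras was lost under several alternatives. Each sequence runs from 250 bases before to 50 bases after the transcription start in RefSeq (assembly GRCm38.p6), 5′ to 3′ on the strand of the gene, and capitals mark matches to the motifs named after them.
Fcgr2b promoter, chr1:170976022-170976321, minus strand: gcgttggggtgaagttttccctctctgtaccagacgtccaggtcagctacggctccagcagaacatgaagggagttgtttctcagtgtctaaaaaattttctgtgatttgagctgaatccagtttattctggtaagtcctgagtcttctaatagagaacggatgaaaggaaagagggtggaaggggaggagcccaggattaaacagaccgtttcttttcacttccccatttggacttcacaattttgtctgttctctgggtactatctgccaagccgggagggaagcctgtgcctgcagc
Fcgr1 promoter, chr3:96293920-96294219, minus strand: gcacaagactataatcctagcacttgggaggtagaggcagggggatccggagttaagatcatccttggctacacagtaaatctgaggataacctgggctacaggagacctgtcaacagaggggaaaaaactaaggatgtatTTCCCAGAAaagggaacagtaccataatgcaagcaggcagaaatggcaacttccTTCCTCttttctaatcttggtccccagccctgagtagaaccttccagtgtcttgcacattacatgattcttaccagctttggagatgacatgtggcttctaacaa
Fcgrt promoter, chr7:45103773-45104072, minus strand: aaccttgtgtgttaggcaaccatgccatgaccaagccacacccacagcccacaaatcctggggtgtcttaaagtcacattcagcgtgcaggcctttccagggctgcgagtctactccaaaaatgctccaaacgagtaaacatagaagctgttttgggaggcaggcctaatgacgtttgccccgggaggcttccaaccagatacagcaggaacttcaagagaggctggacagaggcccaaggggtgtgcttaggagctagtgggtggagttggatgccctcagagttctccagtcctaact
Motifs were searched on both strands. CACGTG, the E-box sequence that Bhlhe40 and Bhlhe41 are known to bind, was found in 0 of the 7 promoter windows of the 6 genes and in 7.15% of all 32851 windows. TTCNNNGAA, the letters of the element bound by STAT factors, matched once, in the Fcgr1 window at -109 bases from the start, against 8.3% of all windows. GAGGAA, a core bound by the macrophage factor PU.1, matched in 4 windows of 3 genes, Fcgr1, Fcgr3 and Fcgr4, against 28.3% of all windows. In Fcgr1 it lies at -55 bases, on the opposite strand, where the capitals read as its reverse complement. These matches describe the letters of these windows and nothing about binding.

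At steady state, DKO alveolar macrophages had much less of the inhibitory receptor transcript and more of the neonatal receptor and of a pair of activating receptors. Fcgr2b fell 5.05-fold, from a mean of 158.5 ± 16.5 to 31.38 ± 3.02 TPM (SD, n = 2), a log2 change of -2.30 ± 0.13 (SE) with limma adjusted p = 7.34e-07. Fcgrt rose 1.82-fold, from 628.7 ± 10.4 to 1142 ± 64.7 TPM (0.86 ± 0.09, adjusted p = 5.8e-05). Fcgr1 rose 1.62-fold, from 59.42 ± 2.64 to 96.33 ± 2.56 TPM (0.69 ± 0.09, adjusted p = 0.000255). These changes exceeded the spread between replicates, and the libraries of the genotypes did not overlap for any of the 3 genes.

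The other 3 genes moved less at steady state. Fcgr3 rose 1.19-fold (0.25 ± 0.08, adjusted p = 0.0251), but without any 1 of 3 of the 4 libraries this call was lost, with adjusted p of up to 0.13. Fcgr4 was 1.28-fold lower in DKO (-0.35 ± 0.15, adjusted p = 0.0828) and Fcer1g differed by -0.07 ± 0.08 (adjusted p = 0.491). Neither passed the threshold, and the sign of the Fcer1g value turned to 0.19 ± 0.10 after rescaling. In all, 4 of the 6 genes passed, 3 higher and 1 lower, where 51.5% of the 12303 features tested passed, 12.2% higher and 39.4% lower. The libraries of the genotypes did not overlap for 5 of the 6 genes and for 76.4% of all features, so this count sets the genes apart in no way.

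The median of all features was -0.22 on the log2 scale in this comparison, so that an average transcript had a lower TPM in DKO. Rescaling, here division of a library's TPM by its median-of-ratios factor, brought this median to 0.00 and the share of features that passed to 38.4%, 20.4% higher and 17.9% lower. Rescaled, Fcgr2b differed by -2.04 ± 0.11, Fcgr1 by 0.95 ± 0.10, Fcgr3 by 0.51 ± 0.10 and Fcgrt by 1.12 ± 0.08, and the same 4 genes passed. In the authors' deposited table, where 37.3% of features passed, the log2 changes were -2.05 for Fcgr2b, 0.95 for Fcgr1, 0.50 for Fcgr3 and 1.12 for Fcgrt, with the same 4 genes past the threshold.

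In mixed chimeras, where cells of both genotypes develop in the same hosts, the neonatal receptor was raised as well, and the inhibitory receptor was lowered less than at steady state. Fcgrt rose 1.70-fold, from 586.1 ± 36.3 to 998.2 ± 54.6 TPM (0.77 ± 0.09, limma adjusted p = 0.000236). Fcgr2b fell 1.58-fold, from 206.9 ± 14.6 to 131.2 ± 7.11 TPM (-0.65 ± 0.13, adjusted p = 0.00444). Fcgr1 rose 1.215-fold, from 83.15 ± 0.713 to 101.0 ± 1.18 TPM (0.28 ± 0.09, adjusted p = 0.048). That last call was lost after rescaling (adjusted p = 0.0637), where 29.4% of all features passed, 14.3% higher and 15.1% lower, and without any 1 of the 4 libraries (adjusted p from 0.106 to 0.165). Without DKO chimera replicate 1, the library with the fewest reads, Fcgr2b differed by -0.71 ± 0.16 (limma adjusted p = 0.0188) and Fcgrt by 0.71 ± 0.11 (adjusted p = 0.00311). Fcgr1 passed in the authors' deposited table, at 0.26 with an adjusted p of 0.0113, where 22.2% of features did.

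None of the other 3 genes passed in chimeras. Fcer1g was 1.15-fold lower in DKO, with no overlap of the libraries (-0.20 ± 0.08, adjusted p = 0.0863). Fcgr3 differed by 0.07 ± 0.08 (adjusted p = 0.588) and Fcgr4 by 0.08 ± 0.15 (adjusted p = 0.747). Thus 3 of 6 genes passed, 2 higher and 1 lower, where 27.3% of all features passed, 13.7% higher and 13.6% lower. Non-overlapping libraries were seen for 5 of the 6 genes, beside 62.4% of all features.

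In peritoneal macrophages the receptors moved in another pattern. Fcgrt rose 3.78-fold, from 346.2 ± 17.3 to 1309 ± 146 TPM (1.91 ± 0.09, limma adjusted p = 1.69e-06). Fcgr2b rose 1.84-fold, from 225.2 ± 38.4 to 414.9 ± 33.7 TPM (0.89 ± 0.13, adjusted p = 0.00119). Fcgr1 fell 1.58-fold, from 42.88 ± 6.42 to 27.12 ± 0.702 TPM (-0.63 ± 0.09, adjusted p = 0.00126). The inhibitory receptor was thus higher and the high-affinity receptor lower in peritoneal DKO cells, each opposite in sign to the difference in alveolar cells. Without any 1 of the 4 libraries the Fcgr1 value lay between -0.78 and -0.48, and in a fit of the 4 peritoneal libraries alone its call was lost (adjusted p = 0.0535).

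Fcgr4 was 1.35-fold higher in peritoneal DKO cells without passing (0.45 ± 0.15, adjusted p = 0.0655). It passed after rescaling (0.59 ± 0.16, limma adjusted p = 0.0257), where 19.8% of all features did, 11.9% higher and 7.87% lower. It also passed in the authors' deposited table (0.50, adjusted p = 0.0418), where 31.9% of features did, and without WT replicate 2 (0.69, limma adjusted p = 0.0196). Without WT replicate 1 the value was only 0.20 (adjusted p = 0.412), so it rests on which WT library is kept. Fcgr3 differed by 0.12 ± 0.08 (adjusted p = 0.343) and Fcer1g by -0.00 ± 0.08 (adjusted p = 1), and the Fcer1g value became 0.14 after rescaling. In total 3 of 6 genes passed, 2 higher and 1 lower, where 22.9% of all features passed, 6.80% higher and 16.1% lower. Libraries did not overlap for 4 genes, close to the 66.8% of all features for which they did not.

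**Figure D2:**
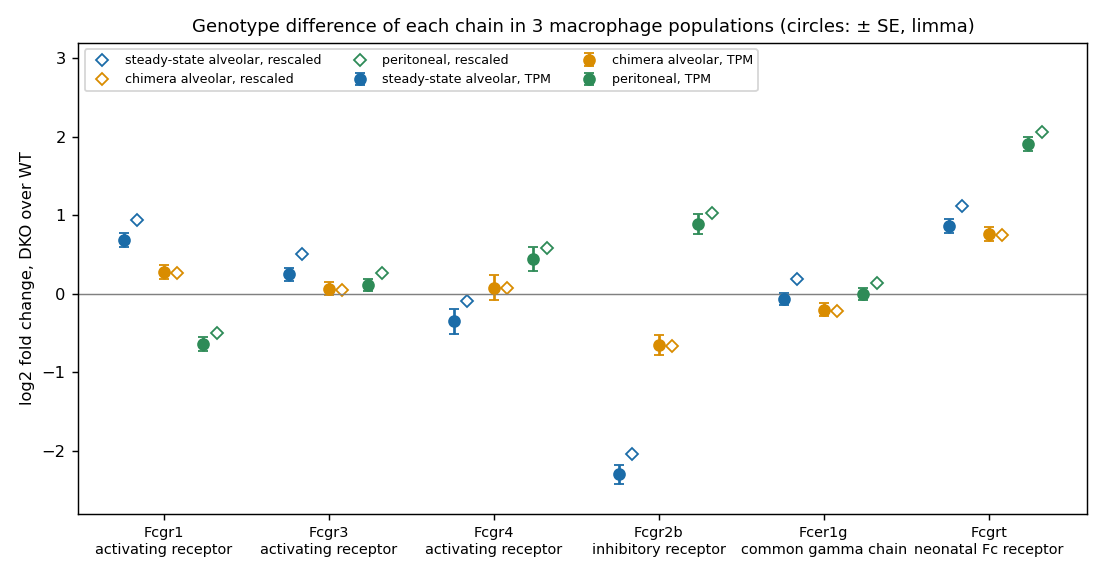
Log2 fold change of DKO over WT (y axis) for the 6 genes (x axis) in steady-state alveolar (blue), chimera alveolar (orange) and peritoneal (green) macrophages. Circles with bars are the TPM values ± SE from limma, open diamonds the rescaled values; Fcgrt lies above 0 in all 3 populations, while Fcgr2b goes from -2.30 to -0.65 to 0.89.

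Whether the genotype difference itself differed between populations was tested as an interaction. Between the peritoneum and steady-state lung, the difference for Fcgr2b changed by 3.19 ± 0.18 on the log2 scale (limma adjusted p = 2.21e-06), and that for Fcgr1 by -1.32 ± 0.13 (adjusted p = 7.69e-05). The Fcgrt difference was larger in the peritoneum by 1.05 ± 0.13 (adjusted p = 0.000296). The Fcgr4 difference changed by 0.80 ± 0.22 (adjusted p = 0.023), a call lost without any 1 of 4 of the 8 libraries. Here 4 of 6 genes passed, where 28.3% of all features did, 17.3% upward and 11.0% downward, around a median of 0.12. Rescaled, the same 4 genes passed, with 3.07 for Fcgr2b, -1.44 for Fcgr1, 0.94 for Fcgrt and 0.68 for Fcgr4, where 27.4% of all features did, 13.6% upward and 13.8% downward.

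Between chimeras and steady-state lung, the Fcgr2b difference shrank by 1.65 ± 0.18 (adjusted p = 0.000567). The Fcgr1 difference changed by -0.41 ± 0.13 (adjusted p = 0.0448), a call lost without any 1 of the 8 libraries. For Fcgrt the change was -0.09 ± 0.13 (adjusted p = 0.619), which did not pass and does not show equal differences. Of the 6 genes, 2 passed, where 24.4% of all features did, 19.9% upward and 4.52% downward, around a median of 0.21. Rescaled, the same 2 passed, at 1.38 and -0.68, where 16.9% of all features did, 6.79% upward and 10.2% downward, and the Fcgrt value moved to -0.37 ± 0.12 (adjusted p = 0.064).

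Levels in WT cells differed between the tissues for every one of the 6 genes. Relative to WT peritoneal macrophages, WT steady-state alveolar macrophages had 2.68-fold more Fcgr4 (1.43 ± 0.15, limma adjusted p = 1.53e-05), 1.94-fold more Fcer1g (0.96 ± 0.08, adjusted p = 1.69e-06), 1.82-fold more Fcgrt (0.86 ± 0.09, adjusted p = 1.21e-05) and 1.39-fold more Fcgr1 (0.47 ± 0.09, adjusted p = 0.00108). They had 2.01-fold less Fcgr3 (-0.999 ± 0.08, adjusted p = 1.43e-06) and 1.42-fold less Fcgr2b (-0.50 ± 0.13, adjusted p = 0.00549). The Fcgr2b call was lost without WT alveolar replicate 1 or without WT peritoneal replicate 1, with adjusted p = 0.0531 and 0.0572. All 6 passing is read against 68.0% of all features, 41.3% higher and 26.7% lower in alveolar cells. The median of all features was 0.16 here, and after rescaling the 6 genes passed in the same directions, where 68.8% of all features did, 34.2% higher and 34.6% lower. This comparison shares its WT libraries with the genotype comparisons and is not independent of them.

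Within one genotype, chimera and steady-state alveolar cells were compared as well, with libraries that the genotype comparisons also use. In WT, Fcgr1 was higher in chimeras by 0.48 ± 0.09 (limma adjusted p = 0.00295), Fcgr2b by 0.38 ± 0.13 (adjusted p = 0.0347) and Fcgr3 by 0.29 ± 0.08 (adjusted p = 0.0174). Without any 1 of the 4 libraries the calls for Fcgr2b and Fcgr3 were lost. These 3 of 6 genes compare with 41.0% of all features, 8.06% higher and 32.9% lower, around a median of -0.18. Rescaled, they were higher by 0.71, 0.62 and 0.52, and Fcer1g by 0.44 (adjusted p = 0.00702), where 37.9% of all features passed in either direction. In DKO, only Fcgr2b of the 6 genes passed, 4.18-fold higher in chimeras (2.03 ± 0.13, adjusted p = 5.36e-06), where 31.8% of all features passed, 16.6% higher and 15.2% lower. The other 5 genes differed by between -0.19 and 0.21 in DKO.

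The make-up of the receptor transcripts shows the balance in one number. The summed TPM of Fcgr1, Fcgr3 and Fcgr4 over that of Fcgr2b was 6.14 and 5.11 in WT steady-state libraries and 29.1 and 33.9 in DKO. It was 4.59 and 5.16 in WT against 7.65 and 8.67 in DKO chimeras, and in the peritoneum 4.76 and 7.23 in WT against 3.59 and 3.30 in DKO. The DKO ratio was thus above that of WT in both alveolar settings, far more so at steady state, and below it in the peritoneum. The WT means, 5.62 ± 0.728, 4.87 ± 0.406 and 5.99 ± 1.75 (SD, n = 2), differed by less than the SD of the peritoneal group. No test was made on this ratio.

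Fcgr2b made up 15.2% ± 1.68 (SD, n = 2) of the summed TPM of the 4 receptors in WT and 3.10% ± 0.322 in DKO steady-state cells. In chimeras it was 17.1% ± 1.18 in WT and 11.0% ± 0.863 in DKO, and in the peritoneum 14.8% ± 3.69 and 22.5% ± 1.05. The sum of the 4 was 1044 ± 5.66 TPM in WT and 1014 ± 7.78 in DKO at steady state, and 1212 ± 1.41 and 1200 ± 30.4 in chimeras, where it differed by less than the DKO spread. In the peritoneum it was 1542 ± 125 TPM in WT and 1841 ± 63.6 in DKO. Summed activating receptor transcripts per gamma chain transcript were 0.454 ± 0.0225 in WT and 0.529 ± 0.0315 in DKO steady-state cells and 1.315 ± 0.208 and 1.425 ± 0.0544 in peritoneal cells. Peritoneal cells thus had more receptor transcript per gamma chain transcript than alveolar cells.

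**Figure D3:**
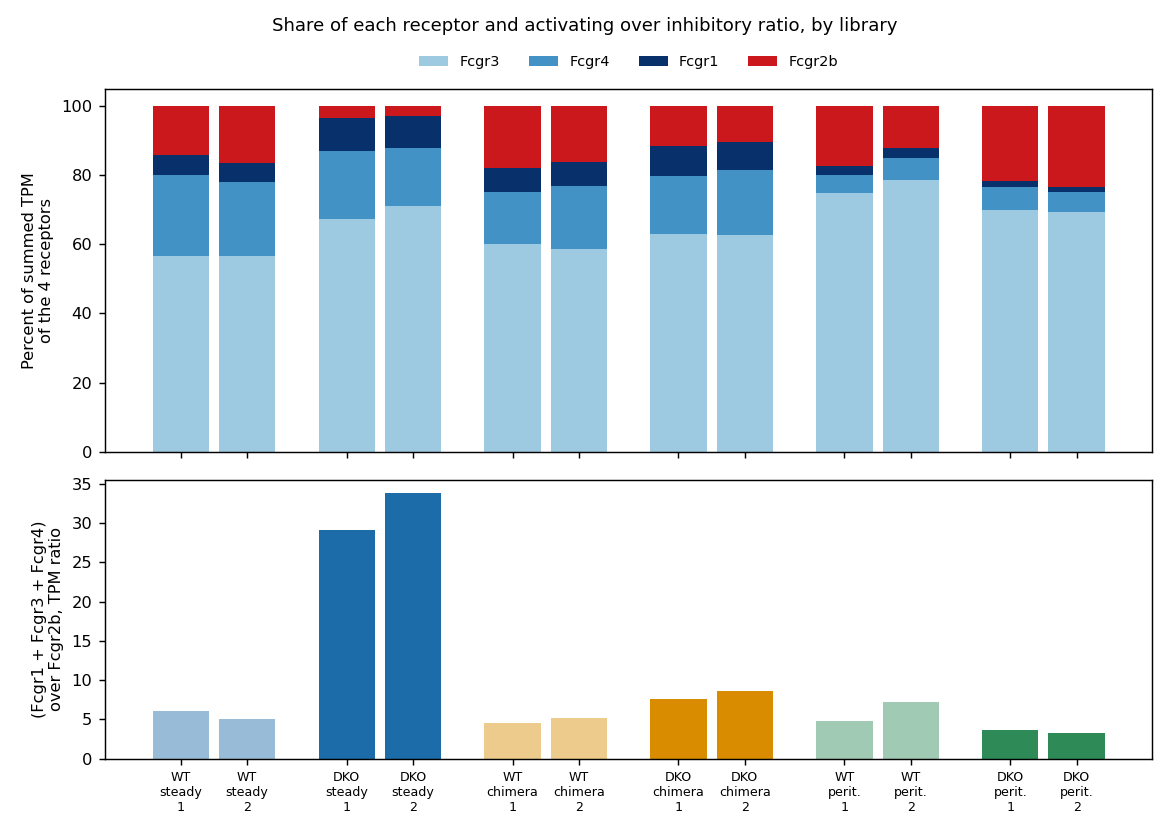
Top, percent of the summed TPM of the 4 receptors held by each (y axis) in each of the 12 libraries (x axis, group and replicate number); bottom, summed TPM of the 3 activating receptors over Fcgr2b, with pale bars for WT and full bars for DKO. The Fcgr2b part, red, shrinks to 3.32% and 2.87% in the DKO steady-state libraries, where the ratio reaches 29.1 and 33.9.

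The partner of Fcgrt was measured too. B2m, the light chain of the neonatal receptor and of MHC class I molecules, was at 4250 and 4055 TPM in WT against 7178 and 8694 in DKO at steady state, at 6785 and 6967 in WT against 8442 and 8798 in DKO chimeras, and at 3456 and 3055 in WT against 5967 and 5519 in DKO peritoneal cells. DKO libraries were above WT libraries in each population. B2m rose by 0.93 ± 0.11 at steady state (limma adjusted p = 9.73e-05), by 0.33 ± 0.11 in chimeras (adjusted p = 0.0449) and by 0.82 ± 0.11 in the peritoneum (adjusted p = 0.000746). The chimera call was lost after rescaling (adjusted p = 0.127).

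**Figure D4:**
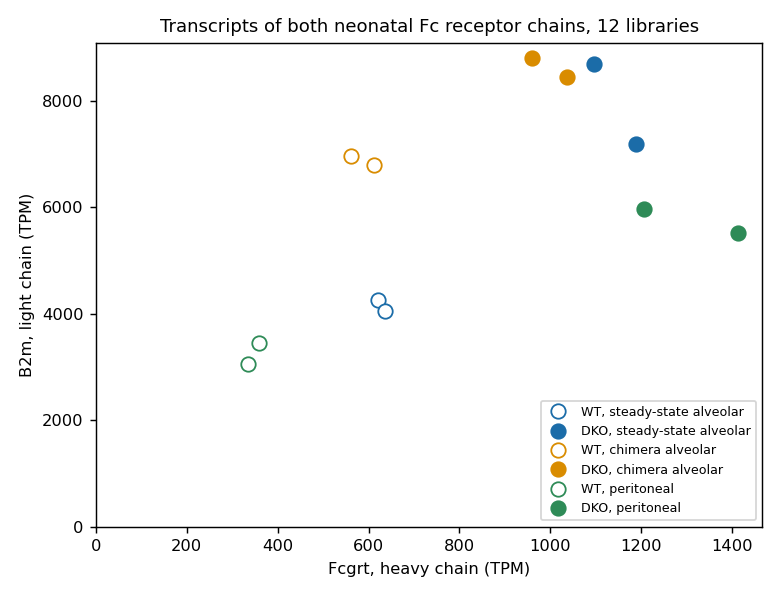
TPM of B2m (y axis) against TPM of Fcgrt (x axis), both from 0, in the 12 libraries; open circles are WT, filled circles DKO, and colours mark the population. In each population the DKO libraries lie to the right of and above the WT libraries, with Fcgrt between 959.6 and 1413 TPM in DKO and between 334.0 and 636.1 in WT.

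Neighbours of the receptor genes on chromosome 1 were looked at in gene order, 21 genes in all with 9 tested genes besides the 4 receptor and gamma chain genes. At steady state 4 of the 9 were lower in DKO and 0 higher, in chimeras 5 were lower and 1 higher, and in the peritoneum 0 passed. The 4 of 9 at steady state are near the 39.4% of all features that were lower there, while in chimeras 13.6% of all features were lower and 13.7% higher, and in the peritoneum 22.9% passed. Their log2 differences ran from -1.03 to -0.12 at steady state, from -0.77 to 1.10 in chimeras and from -0.31 to 0.12 in the peritoneum. Fcgr2b lay outside these ranges at steady state and in the peritoneum. The genes between Fcgr3 and Fcer1g that were tested, Sdhc and Tomm40l, differed by -0.12 ± 0.07 and -0.22 ± 0.11 at steady state and by -0.35 ± 0.07 and -0.36 ± 0.11 in chimeras, where both fell (limma adjusted p = 0.00537 and 0.0326). Ptprc, which encodes CD45, is on chromosome 1 as well, and its alleles differ between the chimera genotypes.

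**Figure D5:**
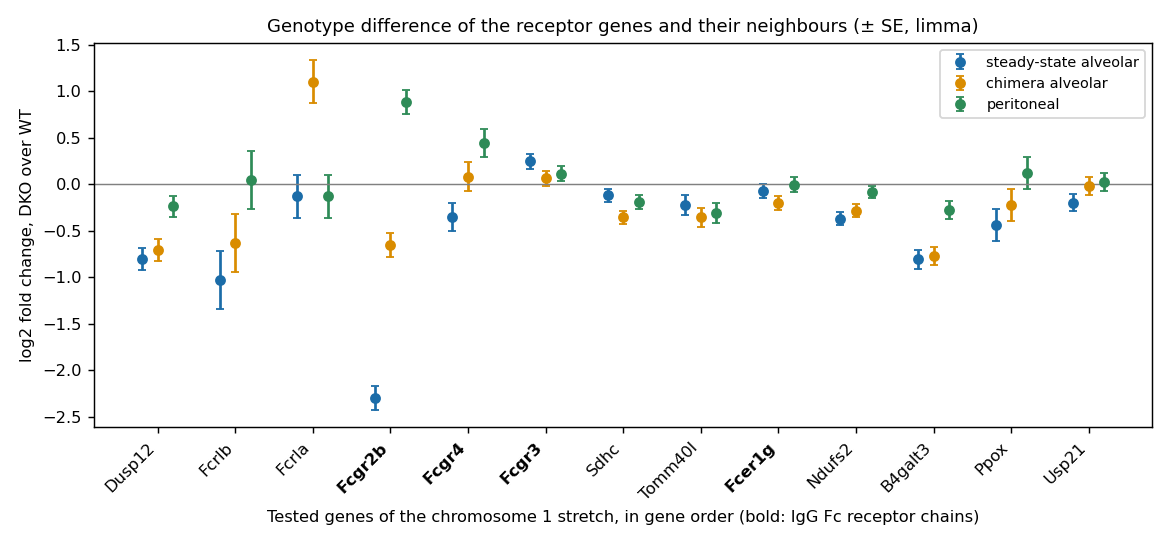
Log2 fold change of DKO over WT ± SE (y axis) for the 13 tested genes of the stretch around the receptor cluster, in gene order (x axis, bold for the receptor and gamma chain genes), in the 3 populations. Fcgr2b reaches -2.30 at steady state and 0.89 in the peritoneum, while the other genes stay between -1.03 and 1.10.

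Receptors and adaptors that signal like the activating Fc receptors were counted next. The list held ITAM adaptors and receptors that signal through the gamma chain or through another such adaptor. Of 13 tested genes, 3 were higher and 7 lower in DKO at steady state, 1 and 3 in chimeras, and 0 and 4 in the peritoneum. Their median was -0.30, -0.18 and -0.27, beside -0.22, 0.01 and -0.09 for all features, and after rescaling the counts were 4 and 3, 1 and 3, and 1 and 3. The shares to read these and the following counts against were, over all features, 12.2% higher and 39.4% lower at steady state, 13.7% and 13.6% in chimeras, and 6.80% and 16.1% in the peritoneum. Rescaled, they were 20.4% and 17.9%, 14.3% and 15.1%, and 11.9% and 7.87%. Clec4n, a lectin receptor for fungal sugars that uses the gamma chain, fell from 945.2 and 1060 to 129.6 and 100.7 TPM at steady state (-3.12 ± 0.27, limma adjusted p = 1.8e-05) and by 0.96 in chimeras (adjusted p = 0.0267). Trem1, a receptor that amplifies inflammatory responses, fell by 3.63 at steady state (adjusted p = 0.000113), and Cd300lb, another activating receptor, rose by 1.69 ± 0.09 (adjusted p = 6.77e-07). Tyrobp, another adaptor with an activation motif, differed by 0.12 ± 0.08 at steady state (limma adjusted p = 0.255), where it passed upward after rescaling (0.38, adjusted p = 0.0147). It fell by 0.27 in the peritoneum (limma adjusted p = 0.0359), a call lost after rescaling (adjusted p = 0.435).

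Downstream of the activating receptors, 32 kinases and adaptors were tested. At steady state 5 were higher and 12 lower, and after rescaling 12 higher and 5 lower. The 12 lower are near the 39.4% of all features that were lower, and the counts turned with the scaling as did those of all features, from 12.2% higher and 39.4% lower to 20.4% and 17.9%. In chimeras 9 were higher and 1 lower (12 and 4 rescaled), with a median of 0.18, beside 13.7% and 13.6% of all features (14.3% and 15.1% rescaled), and in the peritoneum 4 and 6 (6 and 3 rescaled), beside 6.80% and 16.1% (11.9% and 7.87%). Blnk, an adaptor that links Syk to phospholipase C, rose in all 3 populations, by 4.80 ± 0.17 (limma adjusted p = 3.68e-08), 3.31 ± 0.17 (adjusted p = 1.15e-06) and 1.405 ± 0.17 (adjusted p = 0.000574). Its level was 0.116 and 0.199 TPM in WT against 25.6 and 38.3 in DKO at steady state. Src, a kinase that phosphorylates activation motifs, rose by 2.92 ± 0.19 at steady state and 1.52 ± 0.19 in chimeras (adjusted p = 2.36e-06 and 0.000373). Src was at 2.41 and 2.83 TPM in WT against 21.0 and 33.3 in DKO at steady state. Among the genes that fell, Sh2d3c did so by 1.48 at steady state and 0.95 in the peritoneum (limma adjusted p = 0.000148 and 0.00497). Fgr fell by 0.82 in the peritoneum (limma adjusted p = 0.000311). Syk itself, named after its values were seen, differed by -0.06, 0.08 and 0.12, none past the threshold, but passed upward at steady state and in the peritoneum after rescaling (adjusted p = 0.0334 and 0.0172).

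On the inhibitory side, 12 phosphatases and adaptors were tested. At steady state 3 were higher and 6 lower (3 and 2 rescaled), in chimeras 0 and 1, and in the peritoneum 2 and 1 (4 and 1 rescaled). Over all features 12.2% were higher and 39.4% lower at steady state, 13.7% and 13.6% in chimeras, and 6.80% and 16.1% in the peritoneum. Ptpn6, a phosphatase that binds inhibitory motifs, fell by 0.54 at steady state (limma adjusted p = 7.36e-05), and the adaptor Dok1 rose by 0.96 ± 0.14 (adjusted p = 0.000559). Inpp5d, the phosphatase of the Fcgr2b pathway and also named after its values were seen, was at 151.7 and 154.0 TPM in WT against 144.5 and 133.1 in DKO at steady state. It differed by -0.14 ± 0.07 there, by 0.02 ± 0.07 in chimeras and by 0.03 ± 0.07 in the peritoneum, with adjusted p = 0.122, 0.905 and 0.836.

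Other inhibitory receptors of myeloid cells moved in both directions. Of 15 tested, 6 were higher and 3 lower at steady state (8 and 3 rescaled), 5 and 3 in chimeras (5 and 2), and 3 and 5 in the peritoneum (4 and 4). All features gave 12.2% higher and 39.4% lower at steady state (20.4% and 17.9% rescaled), 13.7% and 13.6% in chimeras, and 6.80% and 16.1% in the peritoneum. Siglece, a sialic acid receptor with an inhibitory motif, fell from 80.8 and 77.9 to 9.35 and 7.81 TPM at steady state (-3.07 ± 0.10, limma adjusted p = 2.66e-08) and by 1.60 in chimeras (adjusted p = 5.04e-06). Its relative Cd33 fell by 1.95 and 1.21 (adjusted p = 7.82e-07 and 4.13e-05). In the same cells Cd300a, an inhibitory receptor for phospholipids, rose by 2.34 ± 0.13 and 1.34 ± 0.13 (adjusted p = 8.1e-07 and 7.33e-05), and Clec12a rose by 1.95 ± 0.08 and 0.66 ± 0.08 (adjusted p = 1.29e-07 and 0.000371). In the lung, the fall of Fcgr2b thus stood beside falls of some inhibitory receptors and rises of others.

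Effector genes of antibody-driven uptake were mixed too. Of 7 tested subunits and partners of the phagocyte NADPH oxidase, which makes superoxide in the phagosome, 3 were higher and 1 lower at steady state (5 and 0 rescaled), 2 and 0 in chimeras (1 and 0), and 1 and 2 in the peritoneum (2 and 1). Ncf1, a cytosolic subunit, rose in all 3 populations, by 1.09 ± 0.10, 0.82 ± 0.10 and 0.44 ± 0.10 (limma adjusted p = 1.92e-05, 0.000244 and 0.00962). Of 28 genes of actin and the phagocytic cup, 5 were higher and 20 lower at steady state, but 6 and 3 after rescaling. In chimeras 4 and 5 passed, as after rescaling, and in the peritoneum 0 and 7 (1 and 2 rescaled). For both lists, the all-feature shares were 12.2% higher and 39.4% lower at steady state, 20.4% and 17.9% after rescaling, 13.7% and 13.6% in chimeras, and 6.80% and 16.1% in the peritoneum. Coro1a, which encodes an actin regulator, fell in all 3 populations, by 1.52, 0.83 and 3.01 (adjusted p = 1.27e-05, 0.0011 and 8e-07).

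Complement receptors and uptake partners were counted over 10 tested genes. The list mixes receptors that take up opsonised particles with receptors for complement fragments, such as C3ar1 and C5ar1. At steady state 5 were higher and 3 lower, in chimeras 5 and 1, and in the peritoneum 3 and 1 (6 and 2, 4 and 1, and 4 and 0 rescaled). Beside these stand 12.2% higher and 39.4% lower of all features at steady state, 13.7% and 13.6% in chimeras, and 6.80% and 16.1% in the peritoneum. C3ar1, a receptor for a complement fragment, was at 0.454 and 0.324 TPM in WT against 61.9 and 79.0 in DKO at steady state (5.68 ± 0.12, limma adjusted p = 1.76e-09), and rose by 3.44 ± 0.12 in chimeras (adjusted p = 1.12e-07). C5ar1 fell by 0.67 ± 0.10 at steady state (limma adjusted p = 0.000593) and rose by 0.41 ± 0.10 in the peritoneum (adjusted p = 0.0186). Vsig4, a complement receptor of resident macrophages, rose from 594.5 and 595.4 to 1211 and 1359 TPM in the peritoneum (1.11 ± 0.18, adjusted p = 0.00268).

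Of 13 further genes in a list of other Fc receptors, Fc receptor-like genes and B2m, 6 passed the filter on low values. At steady state 2 of them were higher and 1 lower in DKO (2 and 0 rescaled), in chimeras 3 and 0 (2 and 0), and in the peritoneum 1 and 0. With so few genes these counts are given beside 12.2% higher and 39.4% lower of all features at steady state, 13.7% and 13.6% in chimeras, and 6.80% and 16.1% in the peritoneum. Fcrl1, a receptor-like gene known from B cells, was at 0.0597 and 0.136 TPM in WT against 14.3 and 11.9 in DKO at steady state (3.68 ± 0.15, limma adjusted p = 1.24e-07), and rose by 1.86 ± 0.15 in chimeras (adjusted p = 2.54e-05). Fcer1a, the binding chain of the mast cell IgE receptor that also uses the gamma chain, was listed at 0 in all libraries but 1, where it had 0.136 TPM.

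Markers of other cells were read beside the receptors that those cells also express. Fcgr2b is the Fc receptor of B cells, and of the 6 defining B cell markers 5 were below 1.58 TPM in every alveolar library. Pax5 was the exception, at 17.8 and 3.75 TPM in WT against 3.36 and 2.15 in DKO at steady state. Summed, the 6 markers were at 18.9 and 6.23 TPM in WT against 4.601 and 3.70 in DKO at steady state, and Fcgr2b was higher in the WT library with the lower sum. In the peritoneum Cd79a was at 4.75 and 3.43 TPM in WT against 5.52 and 5.90 in DKO. The whole B cell list, 12 genes in the tables, summed to between 105.4 and 176.1 TPM in alveolar libraries, mostly Cd22, and to between 36.8 and 46.1 in peritoneal ones, mostly Bank1. Cd22, which is also in the list of inhibitory receptors, rose in DKO by 0.38 at steady state and by 0.35 in chimeras (limma adjusted p = 0.00579 and 0.0156). Of 4 defining neutrophil markers, whose cells carry Fcgr3 and Fcgr4, S100a9 and Retnlg were under 1 TPM in every library, while the sum, nearly all from S100a8 and Mmp8, was at most 55.1 TPM in WT and at least 166.3 in DKO at steady state. Cxcr2, from the longer neutrophil list, went the other way, from 4.89 and 3.34 TPM in WT to 0.867 and 1.41 in DKO (-1.25 ± 0.19, limma adjusted p = 0.000608). Mast cells carry Fcer1g and Fcgr2b, and of the 9 genes of their list Hdc was at 107.1 and 110.6 TPM in WT against 32.2 and 19.5 in DKO peritoneal cells (-2.07 ± 0.20, adjusted p = 0.000174), while Cma1 reached 1.597 TPM, in a DKO peritoneal library, and Kit 1.156 TPM, in a DKO chimera library. The 5 defining monocyte markers summed to between 4.15 and 32.9 TPM in alveolar libraries, highest in the DKO chimera libraries. In peritoneal cells they summed to 260.1 and 149.5 TPM in WT against 363.3 and 542.8 in DKO, mostly F13a1. Ly6c2 was under 1 TPM throughout. The whole monocyte list, 9 genes in the tables, was lower in DKO in both alveolar settings, mostly through Nr4a1. Its sum was 1793 and 2022 TPM in WT against 564.2 and 121.7 in DKO at steady state. In chimeras it was 1886 and 2052 TPM in WT against 1025 and 1015 in DKO. Peritoneal cells had 277.0 and 171.3 TPM in WT against 401.2 and 630.5 in DKO, mostly F13a1. Lung epithelial markers summed to between 77.6 and 223.0 TPM in alveolar libraries, lowest in DKO chimera libraries. At steady state this sum joined opposite changes. From WT to DKO the mean of Sftpc rose from 36.76 to 58.81 TPM, that of Sftpb from 6.881 to 13.09 and that of Scgb1a1 from 60.97 to 107.6. The mean of Cdh1 fell from 72.25 to 12.18 TPM. The 4 dendritic cell markers summed to between 1.56 and 8.11 TPM over all libraries. The part of such cells in the receptor differences was not tested.

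Finally, the features whose levels followed each gene most closely over the 12 libraries were named, among 6347 tested features with group means that span at least 1 on the log2 scale. The measure was Pearson's r of log2(TPM + 1) over libraries that share 6 group means, given as a description. Fcgr2b was followed most closely by Carhsp1 (r = 0.986), Zswim7 and Fam60a, and Carhsp1 was at 95.0 and 40.7 TPM on average in WT and DKO steady-state cells and at 116.2 and 137.1 in WT and DKO peritoneal cells. Fcgr1 was followed by Aldh1b1 (r = 0.989), Haus8 and Slc2a1, Fcgr3 by Slc9a3r2 (r = 0.984), Cd97 and Ifitm2, and Fcgr4 by Tgm2 (r = 0.964), Fosb and Mir23a. Fcer1g was followed by Gabarap (r = 0.993), Myl12a and Slc52a3. Fcgrt had the least close followers, with Plxnd1 (r = 0.930) first and Mast1 (r = 0.899) also named. Plxnd1 was at 79.1 and 164.1 TPM on average in WT and DKO steady-state cells and at 12.9 and 121.4 in WT and DKO peritoneal cells.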

How the data were processed

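RNA-seq tables of 12 libraries were used, and 6 ChIP-seq samples were left out, being about other measurements. For the authors' processing, the submitters' processing notes list DESeq2 1.2.10, HTSeq 0.5.3, TopHat 1.4.1, Bowtie2 and Bowtie 1.0.0, and as builds GRCm38.p3 and mm9, with no role given. The authors deposited TPM for every library and, per population, a log2 ratio between the genotypes, its p-value and adjusted p-value, and signal columns of normalized counts. The 12 columns of group means and errors were not used. TPM keeps no depth, but TPM and the deposited signal together gave whole reads for 100.0% of values above 0 within 0.01, and these give the depth and an alternative receptor ratio, and no test.

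The main test was limma 3.58.1 under R 4.3.3, with eBayes using a trend, on log2(TPM + 1). One model with 6 group means took all 12 libraries, leaving 6 residual degrees of freedom. Features with at least 1 TPM in at least 2 libraries entered (12303). Tests were two-sided, p-values were adjusted over these features after Benjamini and Hochberg, and an adjusted p under 0.05 counts as passing. Such p-values measure the spread between replicates, pooled over the 6 groups. Fold changes on this scale understate the change of low genes, and folds in words are ratios of mean TPM. Alternatives were the pseudocount (0.1), filters, median-of-ratios rescaling, fits of the compared libraries alone, a replicate block, and leaving out each library.

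The genes and the 19 lists were chosen with earlier results of these data known, and the lists carry no test. All 6 genes are named, and list members were named from up to 4 past the threshold with the largest change per list and genotype comparison and those above 1000 TPM on average, with the exceptions stated. Symbols were read from feature names with their suffixes removed. The meaning of those suffixes is not given in the sources used here. One feature chosen by the likeness rule is not reported here.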

Additional observations from a re-analysis of the deposited data

Results flagged for a closer look

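The genotype difference, DKO minus WT on the log2 scale, changed between populations for 4 of the 6 genes in limma tests of the difference itself. Over all features, 28.3% passed between the peritoneum and steady-state lung, and 24.4% between chimeras and steady-state lung. From steady-state alveolar to peritoneal macrophages the difference changed by 3.19 for Fcgr2b, from -2.30 to 0.89, and by -1.32 for Fcgr1, from 0.69 to -0.63, so both turned in sign. It changed by 1.05 for Fcgrt, which was higher in DKO in both, and by 0.80 for Fcgr4, which passed the threshold in neither population alone. The Fcgr4 call was lost without any 1 of 4 of the 8 libraries. From steady-state to chimera alveolar macrophages the difference changed by 1.65 for Fcgr2b, lower in DKO in both settings, and by -0.41 for Fcgr1, higher in DKO in both. That Fcgr1 call was lost without any 1 of the 8 libraries.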

How the results depend on the processing

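Fcgr2b and Fcgrt kept their direction and their call in all 3 genotype comparisons under every alternative run. Leaving out 1 library at a time, Fcgr2b ranged from -2.41 to -2.19 at steady state, from -0.72 to -0.58 in chimeras and from 0.71 to 1.06 in the peritoneum, and Fcgrt from 0.80 to 0.92, from 0.70 to 0.83 and from 1.80 to 2.03. The Fcgr1 call in the peritoneum was lost when only the 4 peritoneal libraries were fitted (adjusted p = 0.0535). In chimeras it was lost with a pseudocount of 0.1 and with no filter (adjusted p = 0.0502 and 0.0703).

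Direction turned for values that had not passed, and the cause was not tested. After rescaling these were Fcer1g at steady state (0.19) and in the peritoneum (0.14), Fcgr4 and Fcgrt between WT chimera and WT steady-state cells (0.0077 and 0.13), and the Fcer1g interaction with tissue (-0.0523). The authors' deposited table gave 0.19 and 0.11 for Fcer1g at steady state and in the peritoneum. Leaving out 1 library, Fcer1g ranged from -0.14 to 0.0032 at steady state, from -0.0643 to 0.0567 in the peritoneum and from -0.007 to 0.14 in the interaction with tissue, Fcgr4 from -0.0455 to 0.21 in chimeras, and Fcgr3 from -0.0016 to 0.23 in the peritoneum.

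The number of the 6 genes past the threshold went from 3 to 1 between WT chimera and WT steady-state cells without any 1 library (lowest and highest 1). In the interaction of genotype with setting it went from 2 to 1, both without any 1 library and with no filter on low values. The ratio of activating receptors to Fcgr2b in DKO peritoneal cells was 3.05 from reads, which are not corrected for length, and 3.45 from TPM. Over all features, fits of the compared libraries alone called 4069 at steady state, 1608 in chimeras, 815 between DKO chimera and DKO steady-state cells and 1206 in the interaction with setting, against 6337, 3354, 3915 and 3000. Leaving out 1 library gave 2000 to 3178 in chimeras, 1236 to 1644 in the peritoneum, 2836 to 3786 between WT chimera and WT steady-state cells, 1040 to 4185 in the interaction with setting and 2134 to 4447 in that with tissue.

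The labels do not say that replicate numbers pair the libraries. Deviations of same-numbered libraries in steady-state, chimera and peritoneal cells correlated at -0.149, 0.375 and -0.00058, so that pairing was not shown over the 3 populations but is not excluded in chimeras. With the replicate number as a block, all 30 values of single genes kept direction and call, and so did all 18 with the numbers crossed at steady state, an alternative chosen after seeing the data. In the block fit Fcgr2b differed by -2.30 ± 0.14 at steady state (limma adjusted p = 5.97e-05). The count tests of edgeR and DESeq2 on recovered reads were not run.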
